A study of Homo sapiens with 24 samples.

Results

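The 38 protein-coding HOX genes named as members were followed across derivatives of the prostate cancer lines LNCaP and PC3 made resistant to Acetalax and across their parental cells. They were taken by name from the HOXA, HOXB, HOXC and HOXD clusters, and all 38 were found among the 60660 features of the expression tables. HOXA holds 10 of them on chromosome 7 (GRCh38, 27100354 to 27200106, minus strand) and HOXB 10 on chromosome 17 (48528526 to 48729178, minus strand). HOXC holds 9 on chromosome 12 (53938765 to 54056030, plus strand) and HOXD 9 on chromosome 2 (176092891 to 176190907, plus strand). LNCaP cells, from a lymph node metastasis, respond to androgen, and PC3 cells, from a metastasis to bone, grow without it. Acetalax is oxyphenisatin acetate, a compound formerly used as a laxative. Per the labels, chronic-exposure (CE) cells were derived from parental cells by stepwise higher drug doses over passages until they were resistant. They then spent 2 weeks without drug before RNA was taken. The 8 groups of 3 libraries were LNCaP CE with Acetalax, LNCaP CE control, LNCaP parental with Acetalax, LNCaP parental control, PC3 CE with Acetalax, PC3 CE control, PC3 parental with Acetalax and PC3 parental control, where Acetalax means 10 µM for 4 h and control means no treatment. LNCaP was grown in RPMI-1640 and PC3 in F-12, so medium and line cannot be told apart. The labels do not say whether a CE derivative is a clone or a pool, and they give every library the same batch. Replicates are numbered with no word on separate cultures, so p-values measure the spread between these libraries, which may be technical.

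HOX genes encode homeodomain transcription factors that tell cells where they lie along the head-to-tail axis of the embryo. Their order along a chromosome follows their order along the body: genes at the anterior end of a cluster act in the hindbrain and neck, central genes in the trunk, and posterior genes in the lower body, the limbs and the genital tract. Adult cells tend to keep the HOX pattern of the place they came from, and Polycomb proteins hold the clusters silent where they are not used. In the prostate, a tissue of the posterior body, HOXB13 and HOXA13 are known for their part in development, and HOXB13 is a partner of the androgen receptor. Here paralog groups 1 to 3 are called anterior (7 members), 4 to 8 central (15 members) and 9 to 13 posterior (16 members).

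Promoter windows of 300 bases, 250 before and 50 after an annotated start, were available from RefSeq (GRCh38.p14) for 20 of the 38 members. The windows of 3 are printed from 5′ to 3′ on the strand of the gene, in lower case with each CG dinucleotide, the unit of DNA methylation, in capitals. HOXD11 and HOXD10 are shown because their transcripts had no counts in either parental control and were present in both CE derivatives, and HOXA13 because it was the member that fell most in PC3 CE.
HOXD11 (chr2:176107030-176107329, plus strand): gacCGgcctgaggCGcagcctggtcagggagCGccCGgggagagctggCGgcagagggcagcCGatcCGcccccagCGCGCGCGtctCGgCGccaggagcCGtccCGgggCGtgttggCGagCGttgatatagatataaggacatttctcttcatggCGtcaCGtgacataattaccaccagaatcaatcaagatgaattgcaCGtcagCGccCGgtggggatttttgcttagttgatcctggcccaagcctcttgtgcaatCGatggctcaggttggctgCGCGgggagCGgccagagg
HOXD10 (chr2:176116528-176116827, plus strand): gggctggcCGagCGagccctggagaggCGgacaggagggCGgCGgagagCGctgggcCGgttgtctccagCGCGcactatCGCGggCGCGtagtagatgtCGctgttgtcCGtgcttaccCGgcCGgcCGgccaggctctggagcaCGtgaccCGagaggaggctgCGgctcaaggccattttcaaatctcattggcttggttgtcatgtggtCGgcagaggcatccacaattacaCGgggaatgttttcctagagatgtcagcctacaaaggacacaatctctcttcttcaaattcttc
HOXA13 (chr7:27200042-27200341, minus strand): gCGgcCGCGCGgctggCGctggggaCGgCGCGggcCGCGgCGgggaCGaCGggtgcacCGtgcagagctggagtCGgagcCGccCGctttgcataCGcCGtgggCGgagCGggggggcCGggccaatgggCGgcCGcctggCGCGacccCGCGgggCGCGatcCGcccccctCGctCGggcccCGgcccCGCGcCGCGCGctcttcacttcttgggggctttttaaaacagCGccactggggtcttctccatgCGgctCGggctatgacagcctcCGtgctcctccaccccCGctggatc
The windows hold 27 CG dinucleotides at HOXD11, 23 at HOXD10 and 44 at HOXA13, against a median of 14 over all 35116 RefSeq windows. The 27 windows of members held 0 to 44, with a median of 22. HOXB1, also without counts in either parental control and at low levels in both CE derivatives, has a window with 11 that is not printed. Windows with 44 or more make up 4.19% of all, those with 27 or more 28.2% and those with 23 or more 35.8%. The sequence TGATTNAT, searched on both strands as the paired HOX and PBX motif, is present in 2.82% of all windows and in the windows of HOXD11 and HOXA2 among the members. HOXC4 and HOXC5 share 1 annotated window, so a start there cannot be assigned to either gene. DNA methylation and factor binding were not measured.

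Library totals ranged from 40160832 to 57728014 expected counts. The libraries PC3 CE Acetalax 1, LNCaP parental control 2 and LNCaP parental Acetalax 3 stood apart from the others of their group. Levels are given as TPM, transcript abundance scaled for length and library size. The enolase gene ENO2, the only neuroendocrine marker fixed for the check that was high anywhere, was 278 TPM in PC3 CE Acetalax 1, against 36.7 and 29.1 TPM in the other 2 libraries of that group. It was 17.5 TPM in LNCaP parental Acetalax 3 and 16.1 TPM in LNCaP parental control 2, against 165 to 218 TPM in the other 4 LNCaP parental libraries. Values without them are given where they change a HOX count or level. The CE libraries went against their labelled epithelial cell type. The summed level of 5 epithelial markers (EPCAM, CDH1, KRT8, KRT18 and KRT19) was 6.70 to 8.29 TPM in LNCaP CE and 23.1 to 24.8 TPM in PC3 CE, against 1071 to 1225 TPM in LNCaP parental and 2466 to 2820 TPM in PC3 parental controls, and CDH1 was under 1 TPM in both CE derivatives. A level of 1 TPM was reached by 1 of the 5 in LNCaP CE and 4 of the 5 in PC3 CE, and by all 5 in both parental lines. Of 6 prostate luminal markers, 1 reached 1 TPM in LNCaP CE (sum 4.46 to 7.14 TPM) and all 6 did in LNCaP parental (4713 to 7533 TPM). In PC3, 3 did in CE (sum 24.4 to 42.7 TPM) and 2 in parental cells (16.0 to 18.4 TPM). The 6 fibroblast markers (COL1A1, COL1A2, COL3A1, PDGFRB, DCN and LUM) summed to 984 to 1045 TPM in LNCaP CE and 2996 to 3003 TPM in PC3 CE, against 9.24 to 23.4 TPM in LNCaP parental and 31.0 to 39.1 TPM in PC3 parental. All 6 reached 1 TPM in LNCaP CE and 5, without PDGFRB, in PC3 CE, against 1 in each parental line. Endothelial markers summed to 0.15 TPM or less in the CE controls. Among 5 neuroendocrine markers, 3 (CHGA, SYP and ENO2) reached 1 TPM in PC3 CE and 1 (ENO2) in PC3 parental. For LNCaP the number was 2 in CE and 2 in parental cells. Of 7 melanocyte and neural crest markers TYRP1 alone reached 1 TPM in either CE derivative, and SOX10 and MLANA were at 0 there. Their sum was 19.5 to 22.7 TPM in LNCaP CE and 371 to 391 TPM in PC3 CE, against 5.92 to 9.75 TPM in LNCaP parental and 6.42 to 7.69 TPM in PC3 parental. The 5 immune markers, with 1 at 1 TPM in each group, summed to 9.07 to 11.6 TPM in LNCaP CE and 8.59 to 9.29 TPM in PC3 CE, against 1.16 to 2.10 TPM in LNCaP parental and 30.8 to 41.6 TPM in PC3 parental. These shifts moved with every CE difference given here, and their part in the HOX results was not tested. Whether the CE libraries hold cells of the labelled lines was not tested. In bulk RNA fewer cells that express a gene and less RNA per cell cannot be told apart.

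More of the HOX clusters was expressed in both CE derivatives than in the parental lines. Members with a group mean of 1 TPM or more numbered 33 in LNCaP CE and 33 in PC3 CE, against 13 in LNCaP parental and 24 in PC3 parental. Over all features the numbers were 13320 in LNCaP CE and 14336 in PC3 CE, against 14699 in LNCaP parental and 15086 in PC3 parental. The CE derivatives shared 32 of their HOX members at this level, which is 97.0% of each list. Lists of 33 out of 38 must overlap for the most part, and the overlap over all features was not computed. PC3 CE alone had HOXB13 and LNCaP CE alone had HOXC11. All 15 central members reached 1 TPM in both CE derivatives, against 5 in LNCaP parental and 11 in PC3 parental. No member of HOXD reached 1 TPM in either parental control, whereas 7 of 9 did in LNCaP CE and 7 of 9 in PC3 CE. Summed over the 38 members, HOX transcripts were 1117, 1087 and 1171 TPM in LNCaP CE, 1559.7, 1592 and 1577 TPM in PC3 CE, 374, 336 and 366 TPM in LNCaP parental and 311, 303 and 294 TPM in PC3 parental. All 6 CE libraries lay above all 6 parental libraries. The parental line with the higher sum was LNCaP, and 72.1% of its sum was HOXB13 alone.

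**Figure D1:**
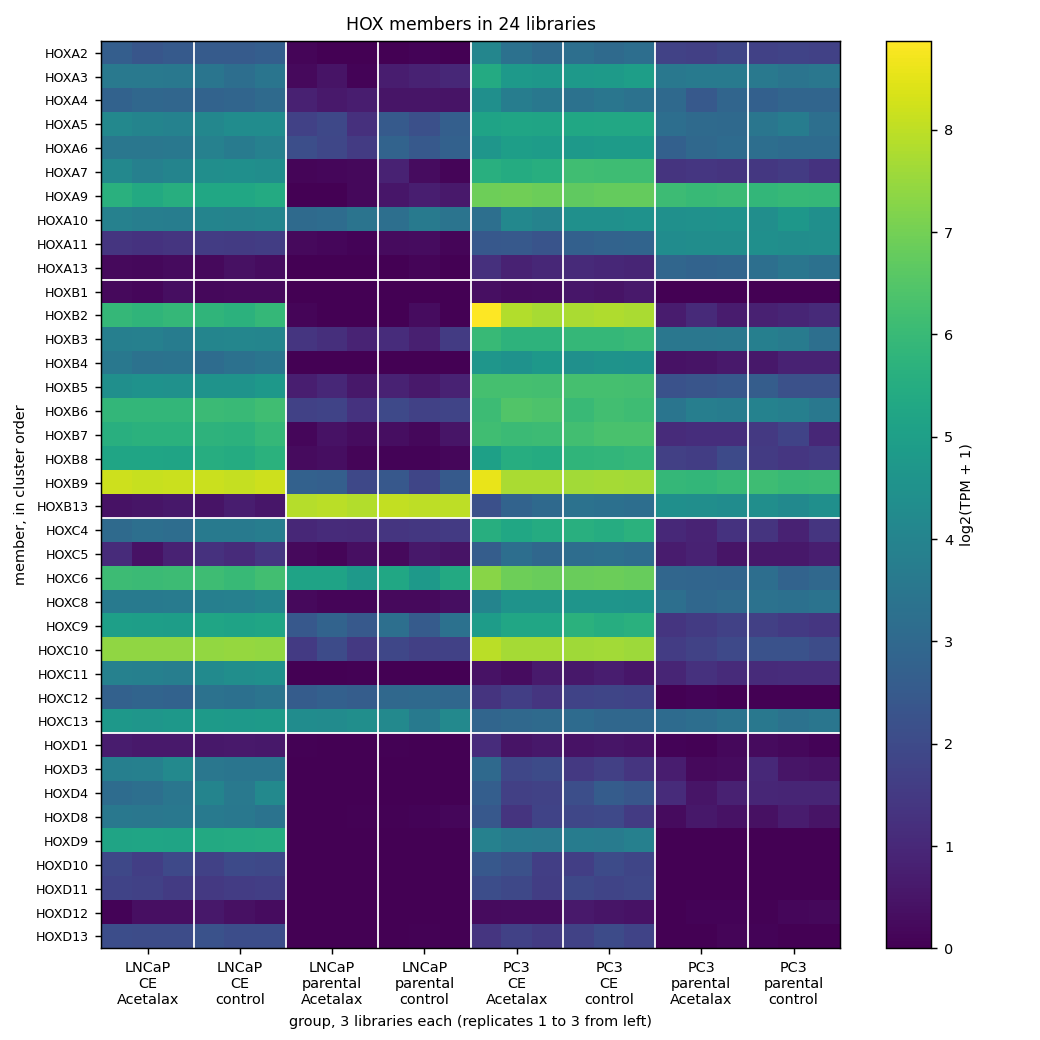
Each row is a HOX member and each column a library, with 3 libraries a group, and the colour is log2(TPM + 1). The HOXD block is dark in both parental lines, HOXB13 is bright in LNCaP parental libraries, and the 2 CE derivatives share most of their bright rows.

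The order of levels differed between the cell kinds. In LNCaP CE the highest means were HOXB9 at 282 TPM, HOXC10 at 173 TPM and HOXC6 at 67.3 TPM, with HOXB6 next at 66.3 TPM, within the spread of HOXC6. In PC3 CE they were HOXB2 at 217 TPM, HOXB9 with 199 to 201 TPM in its 3 libraries and HOXC10 at 194 TPM. In LNCaP parental HOXB13 led with 258 TPM, followed by HOXC6 at 34.8 TPM and HOXC13 at 15.1 TPM. In PC3 parental HOXB9 led with 65.7 TPM, followed by HOXA9 at 58.8 TPM and HOXA10 at 21.7 TPM. HOXB9 and HOXC10 were thus among the 3 highest members in both CE derivatives and HOXC10 in neither parental line. Over the 38 members, log2(TPM + 1) of group means had a Pearson correlation of 0.80 between LNCaP CE and PC3 CE and of 0.47 between LNCaP parental and PC3 parental. Each CE derivative was less like its own parental line, with 0.16 between LNCaP CE and LNCaP parental and 0.50 between PC3 CE and PC3 parental. The values depend on the scale. As Spearman's rho they were 0.79 between the CE derivatives, 0.69 between the parental lines, 0.42 in LNCaP and 0.52 in PC3, and with a pseudocount of 0.1 the Pearson value in LNCaP was 0.29. These correlations describe 38 genes that share clusters, libraries and depth, and no test goes with them.

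**Figure D2:**
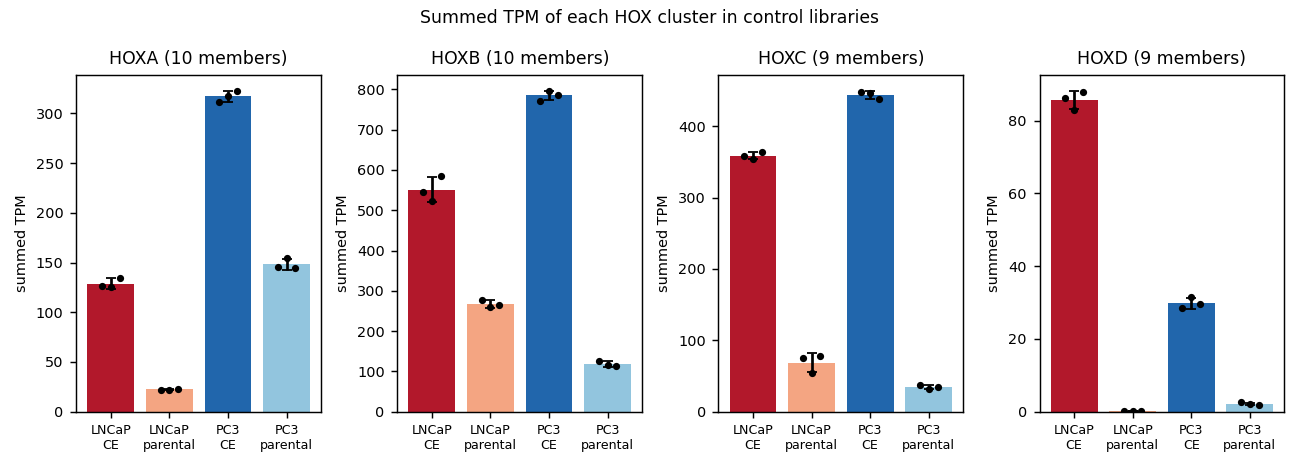
Bars are the mean summed TPM of each HOX cluster in the control libraries, with the SD as error bar and the 3 libraries as points (vertical axes differ between panels). CE bars are higher than those of their own parental line in all 4 clusters, and the HOXD sum is near 0 in both parental lines.

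The clusters differed in how their sums compared. HOXA summed to 129 ± 5.34 TPM in LNCaP CE, 317 ± 5.84 TPM in PC3 CE, 22.3 ± 0.709 TPM in LNCaP parental and 148 ± 5.37 TPM in PC3 parental (SD, n = 3 each). HOXB summed to 552 ± 30.6 TPM, the largest share of LNCaP CE at 49.0%, and to 785 ± 12.2 TPM in PC3 CE, against 267 ± 8.78 TPM in LNCaP parental and 118 ± 7.22 TPM in PC3 parental. For HOXC the sums were 359 ± 4.41 TPM in LNCaP CE and 444 ± 5.67 TPM in PC3 CE, against 68.9 ± 13.1 TPM in LNCaP parental and 34.5 ± 2.60 TPM in PC3 parental. HOXD gave the lowest sums of the 4 clusters in all 4 control groups, namely 85.8 ± 2.51 TPM in LNCaP CE, 29.8 ± 1.54 TPM in PC3 CE, 0.103 ± 0.0306 TPM in LNCaP parental and 2.17 ± 0.343 TPM in PC3 parental. It was the only cluster whose sum was higher in LNCaP CE than in PC3 CE. In HOXA, PC3 parental exceeded LNCaP CE.

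**Figure D3:**
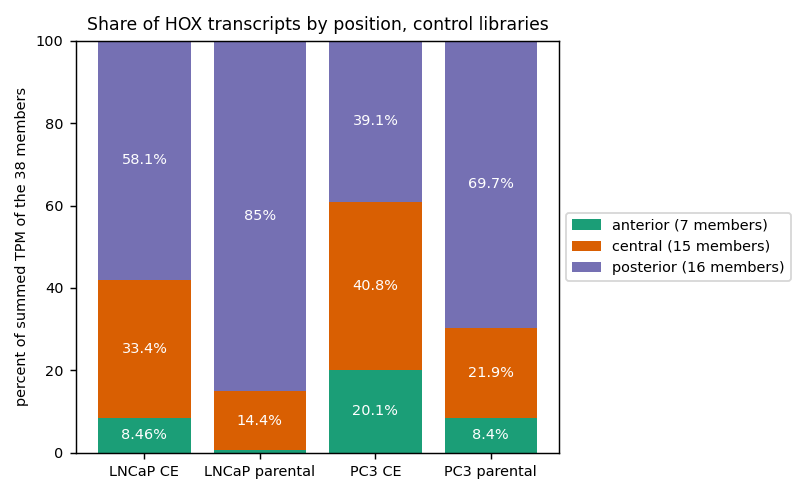
Stacked bars give the percent of the summed TPM of all 38 members that came from anterior, central and posterior members in the control libraries. The posterior part is 58.1% in LNCaP CE and 39.1% in PC3 CE, against 85.0% in LNCaP parental and 69.7% in PC3 parental. Without HOXB13 it is 46.4% in LNCaP parental.

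The balance along the body axis was less posterior in the CE derivatives, in LNCaP through HOXB13 alone. Posterior members made up 58.1% of HOX transcripts in LNCaP CE and 39.1% in PC3 CE, against 85.0% in LNCaP parental and 69.7% in PC3 parental. Without HOXB13, a sum chosen after its share was seen, the order in LNCaP was the opposite, with 58.1% in LNCaP CE against 46.4% in LNCaP parental, while PC3 kept it, with 38.8% in PC3 CE against 67.7% in PC3 parental. Central members made up 33.4% in LNCaP CE and 40.8% in PC3 CE, against 14.4% in LNCaP parental and 21.9% in PC3 parental. Without HOXB13 the central share was 33.4% in LNCaP CE, against 51.4% in LNCaP parental. The anterior share was 8.46% in LNCaP CE and 20.1% in PC3 CE, against 0.613% in LNCaP parental and 8.40% in PC3 parental. The posterior sum itself was not lower in CE cells: it came to 654 ± 13.9 TPM in LNCaP CE and 616 ± 2.96 TPM in PC3 CE, against 305 ± 11.1 TPM in LNCaP parental and 211 ± 2.04 TPM in PC3 parental. Paralog group 13, the most posterior, had a lower sum in CE cells, and its 4 members came to 31.3 ± 0.461 TPM in LNCaP CE and 19.4 ± 0.894 TPM in PC3 CE, against 274 ± 9.97 TPM in LNCaP parental and 38.4 ± 1.49 TPM in PC3 parental. Without HOXB13 the other 3 members of the group summed to 30.8 ± 0.589 TPM in LNCaP CE and 10.7 ± 0.443 TPM in PC3 CE, against 15.1 ± 3.21 TPM in LNCaP parental and 19.3 ± 0.217 TPM in PC3 parental, so the fall in LNCaP was that of HOXB13. For these sums 3 libraries against 3 cannot reach an exact permutation p below 0.1, so no test is given.

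Against its parental line, each CE derivative differed at nearly every HOX member, and mostly upward. In LNCaP CE, 37 of the 37 members that passed the filter on low counts differed at an adjusted p of 0.05 (edgeR's quasi-likelihood test, Benjamini-Hochberg over all genes tested), 36 higher and 1 lower. The background was large: 75.3% of the 19393 genes tested differed in this comparison, 36% higher and 39.3% lower. In PC3 CE, 36 of 38 members differed, 31 higher and 5 lower, where 77.5% of 20049 genes tested differed, 38.5% higher and 39% lower. Of the members tested, 97.3% rose in LNCaP CE and 81.6% in PC3 CE, beside those 36% and 38.5% of all genes. The median log2 fold change was 6.12 over the members tested in LNCaP and 2.57 in PC3, against -0.06 and -0.01 over all genes tested. With members at 0 counts in a parental group set to their lower bound, the median was 5.21 in LNCaP and 2.57 in PC3. In LNCaP 17 members passed the filter only through the CE libraries, namely HOXA2, HOXA7, HOXA13, HOXB2, HOXB4, HOXB7, HOXB8, HOXC11 and all 9 of HOXD. In PC3 8 did so, namely HOXB1, HOXC12, HOXD1, HOXD9, HOXD10, HOXD11, HOXD12 and HOXD13. Such members were tested only because they are high in CE cells, so their calls support nothing and their levels are given as a description. Of the other 20 members in LNCaP 19 were higher and HOXB13 lower, and of the other 30 in PC3 24 were higher and 5 lower. The medians above include the members that passed only through CE libraries. Over the other members alone the median log2 fold change was 3.32 in LNCaP and 2.23 in PC3. The 2 comparisons share no library. In both, 30 members were higher in CE, and HOXB13 was lower in both. The 30 are a description, since they include members that passed the filter only through CE libraries, such as HOXA2 and HOXD9. The shares of all genes that went the same way or opposite ways in the 2 lines were not computed. HOXA11, HOXA13, HOXC11 and HOXC13, all posterior, were higher in LNCaP CE and lower in PC3 CE. HOXA10 and HOXD1 were higher in LNCaP CE and did not pass in PC3 CE.

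**Figure D4:**
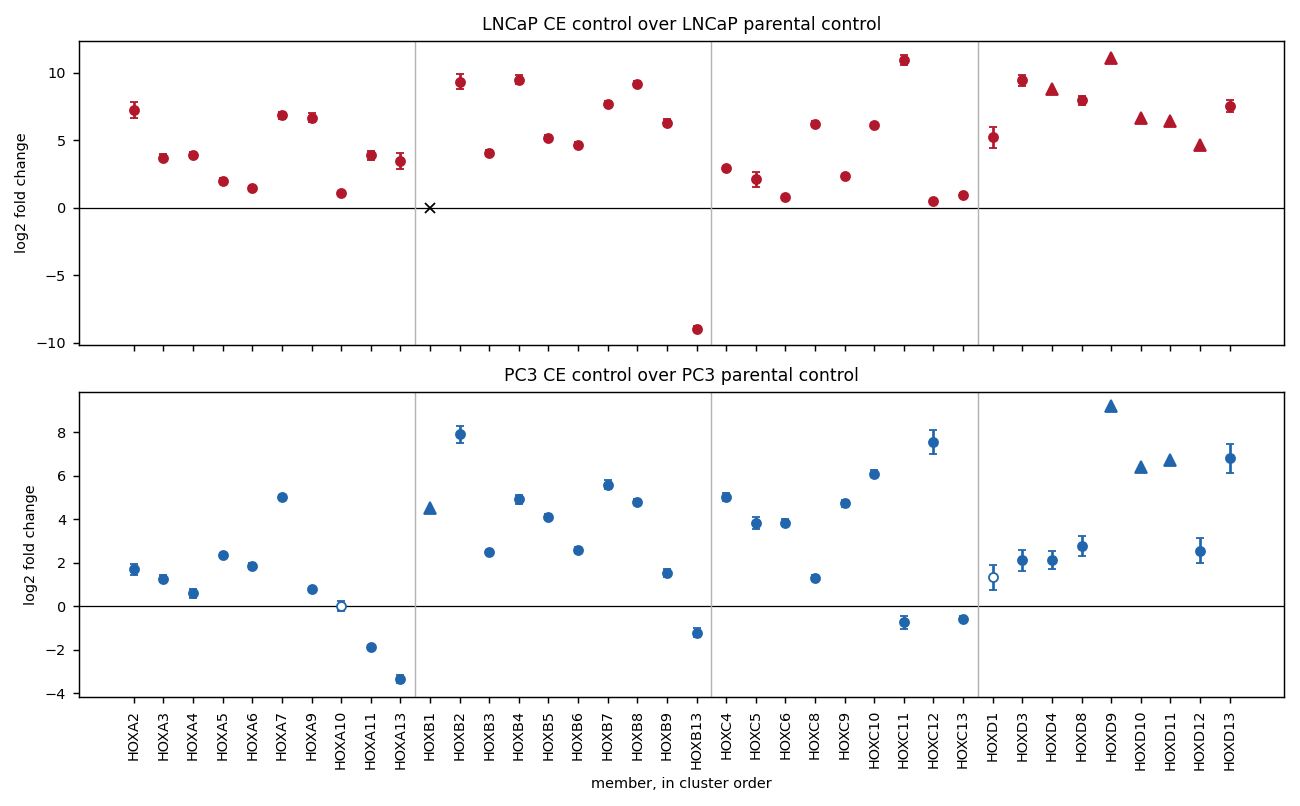
Log2 fold changes of CE control over parental control are plotted for each member in cluster order, with the SE as error bar. Filled circles passed an adjusted p of 0.05 and open circles did not, triangles are lower bounds against 0 parental counts, and the cross marks HOXB1, which did not pass the filter in LNCaP. Points lie above 0 throughout in LNCaP except HOXB13, and in PC3 below 0 at HOXA11, HOXA13, HOXB13, HOXC11 and HOXC13.

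In HOXD the posterior members were present in both CE derivatives and at or near 0 in both parental lines. HOXD9 had 40.7, 42.3 and 42.5 TPM in LNCaP CE, 12.4, 11.9 and 13.4 TPM in PC3 CE, 0 TPM in all 3 libraries of LNCaP parental and 0 TPM in all 3 libraries of PC3 parental. HOXD9 acts in limb and lower trunk patterning. It was at least 2222-fold higher in LNCaP CE and at least 584-fold higher in PC3 CE, computed against the 3 counts over a group that a count of 0 allows. HOXD10 had 2.29, 2.98 and 2.81 TPM in LNCaP CE, 2.15, 3.08 and 2.62 TPM in PC3 CE, 0 TPM in all 3 libraries of LNCaP parental and 0 TPM in all 3 libraries of PC3 parental. HOXD10, a gene of the lumbar spinal cord and limb, was at least 98.3-fold higher in LNCaP CE and at least 83.7-fold higher in PC3 CE. HOXD11 had 1.75, 1.97 and 2.12 TPM in LNCaP CE, 2.80, 2.57 and 2.67 TPM in PC3 CE, 0 TPM in all 3 libraries of LNCaP parental and 0 TPM in all 3 libraries of PC3 parental. HOXD11, which patterns the forearm together with HOXA11, was at least 87.6-fold higher in LNCaP CE and at least 106-fold higher in PC3 CE. These are the genes of the first 2 printed windows. HOXD13 had 3.69, 3.29 and 3.29 TPM in LNCaP CE, 2.39, 3.06 and 2.44 TPM in PC3 CE, 0.00, 0.04 and 0.01 TPM in LNCaP parental and 0.05, 0.00 and 0.01 TPM in PC3 parental. HOXD13, needed for digit formation, had 4 counts in all in either parental control and a fitted log2 fold change of 7.54 ± 0.46 (SE) in LNCaP CE and 6.79 ± 0.68 in PC3 CE.

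HOXD3, HOXD4 and HOXD8, the anterior and central members of HOXD above 1 TPM, were also higher in both CE derivatives. HOXD3 had 10.5, 9.95 and 9.79 TPM in LNCaP CE, 1.75, 2.19 and 1.60 TPM in PC3 CE, 0.00, 0.02 and 0.00 TPM in LNCaP parental and 1.01, 0.40 and 0.36 TPM in PC3 parental. The count ratio of LNCaP CE over LNCaP parental, which had 2 counts, was 738 (204 to 6098), with the exact 95% interval in parentheses. In PC3 the log2 fold change was 2.12 ± 0.47 (SE, adjusted p = 0.00150). HOXD4 had 15.0, 11.0 and 17.2 TPM in LNCaP CE, 3.43, 5.04 and 4.17 TPM in PC3 CE, 0 TPM in all 3 libraries of LNCaP parental and 0.93, 0.88 and 0.91 TPM in PC3 parental. HOXD4 was at least 435-fold higher in LNCaP CE, with a log2 fold change of 2.12 ± 0.40 (SE, adjusted p = 4.77e-04) in PC3 CE. HOXD8 had 11.4, 10.7 and 9.51 TPM in LNCaP CE, 2.68, 2.85 and 1.93 TPM in PC3 CE, 0.03, 0.05 and 0.12 TPM in LNCaP parental and 0.31, 0.58 and 0.37 TPM in PC3 parental. Its log2 fold change was 7.95 ± 0.33 in LNCaP CE and 2.77 ± 0.44 (SE, adjusted p = 1.22e-04) in PC3 CE. The groups overlapped for none of these 3 genes. HOXD1 and HOXD12 stayed under 1 TPM in all control groups: HOXD1 was 0.48 to 0.52 TPM in LNCaP CE and 0.34 to 0.40 TPM in PC3 CE, against 0 to 0.04 TPM in LNCaP parental and 0.06 to 0.21 TPM in PC3 parental. HOXD12 was 0.23 to 0.50 TPM in LNCaP CE and 0.36 to 0.51 TPM in PC3 CE, against 0 TPM in LNCaP parental and 0.03 to 0.15 TPM in PC3 parental. HOXD12 was at least 24.3-fold higher in LNCaP CE with a log2 fold change of 2.56 ± 0.57 in PC3 CE.

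HOXB had the highest sum of the 4 clusters in both CE derivatives. HOXB2 had 54.5, 50.4 and 58.7 TPM in LNCaP CE, 216, 223 and 214 TPM in PC3 CE, 0.00, 0.23 and 0.00 TPM in LNCaP parental and 0.77, 0.90 and 1.06 TPM in PC3 parental. HOXB2, a hindbrain gene, was low in both parental lines and the highest HOX transcript of PC3 CE. All 12 of its counts in LNCaP parental came from library 2, which stood apart. The log2 fold change was 9.34 ± 0.56 in LNCaP CE and 7.91 ± 0.39 (SE, adjusted p = 3.89e-09) in PC3 CE. Without that library HOXB2 had 0 counts in LNCaP parental and was at least 1479-fold higher in LNCaP CE. HOXB3 had 15.3, 15.7 and 15.5 TPM in LNCaP CE, 59.0, 58.8 and 62.8 TPM in PC3 CE, 1.18, 0.73 and 1.90 TPM in LNCaP parental and 13.1, 11.8 and 8.53 TPM in PC3 parental. HOXB4 had 7.89, 8.97 and 9.87 TPM in LNCaP CE, 21.1, 22.7 and 21.8 TPM in PC3 CE, 0.02, 0.00 and 0.02 TPM in LNCaP parental and 0.49, 0.79 and 0.78 TPM in PC3 parental. HOXB3 and HOXB4 act in the hindbrain and neck, and HOXB4 is also known for expanding blood stem cells. LNCaP parental held 2 counts of HOXB4 in all, a count ratio of 767 (212 to 6337) for LNCaP CE. The log2 fold change of HOXB3 was 4.03 ± 0.23 in LNCaP CE and 2.50 ± 0.11 in PC3 CE, and that of HOXB4 was 4.90 ± 0.19 in PC3 CE. HOXB5 had 22.5, 22.6 and 25.7 TPM in LNCaP CE, 75.5, 74.5 and 74.0 TPM in PC3 CE, 0.81, 0.52 and 0.78 TPM in LNCaP parental and 5.07, 3.61 and 3.61 TPM in PC3 parental. HOXB6 had 65.4, 62.8 and 70.7 TPM in LNCaP CE, 64.2, 72.0 and 68.6 TPM in PC3 CE, 2.87, 2.27 and 2.55 TPM in LNCaP parental and 14.1, 13.3 and 10.8 TPM in PC3 parental. HOXB5 and HOXB6 are genes of the neck and thorax. HOXB6 was the central HOXB member with the highest parental level in both lines, and no CE library overlapped a parental one. HOXB5 rose by 5.19 ± 0.20 in LNCaP CE and 4.12 ± 0.13 in PC3 CE on the log2 scale, and HOXB6 rose by 4.67 ± 0.21 in LNCaP CE and 2.58 ± 0.12 in PC3 CE. HOXB7 had 51.9, 51.3 and 59.3 TPM in LNCaP CE, 72.5, 78.4 and 79.8 TPM in PC3 CE, 0.25, 0.15 and 0.40 TPM in LNCaP parental and 1.77, 2.43 and 1.00 TPM in PC3 parental. HOXB8 had 45.2, 42.5 and 49.6 TPM in LNCaP CE, 54.5, 56.5 and 58.6 TPM in PC3 CE, 0.06, 0.05 and 0.11 TPM in LNCaP parental and 1.92, 1.65 and 1.86 TPM in PC3 parental. Both were at or below 2.43 TPM in all parental libraries, and CE and parental libraries did not overlap. HOXB7 rose by 7.71 ± 0.21 in LNCaP CE and 5.58 ± 0.20 in PC3 CE, and HOXB8 rose by 9.16 ± 0.25 in LNCaP CE and 4.80 ± 0.14 in PC3 CE. HOXB9 had 283, 269 and 295 TPM in LNCaP CE, 199.8, 201 and 199 TPM in PC3 CE, 4.47, 2.62 and 4.69 TPM in LNCaP parental and 69.0, 63.0 and 65.2 TPM in PC3 parental. HOXB9, a thoracic gene, was the highest HOX transcript of PC3 parental as well as of LNCaP CE. Its log2 fold change was 6.29 ± 0.26 in LNCaP CE and 1.53 ± 0.19 in PC3 CE. HOXB1, the most anterior member of the cluster, was 0.14 to 0.16 TPM in LNCaP CE and 0.39 to 0.52 TPM in PC3 CE, with 0 counts in both parental controls. It was at least 9.00-fold higher in LNCaP CE, where it did not pass the filter and was not tested, and at least 22.7-fold higher in PC3 CE.

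HOXB13 ran against the rest of its cluster. HOXB13 had 0.37, 0.62 and 0.44 TPM in LNCaP CE, 9.26, 8.63 and 8.30 TPM in PC3 CE, 267, 254 and 254 TPM in LNCaP parental and 20.0, 17.3 and 20.1 TPM in PC3 parental. The prostate gene HOXB13 fell by 8.97 ± 0.20 on the log2 scale (SE, adjusted p = 3.00e-11) in LNCaP CE and fell by 1.20 ± 0.20 (adjusted p = 1.45e-04) in PC3 CE. All libraries of LNCaP CE were below 1 TPM, and PC3 CE was below PC3 parental in every library. PRAC1 and PRAC2, a pair of prostate-expressed genes between HOXB9 and HOXB13, moved the same way. PRAC1 averaged 0.05 ± 0.0866 TPM in LNCaP CE and 601 ± 79.0 TPM in LNCaP parental, and 1.89 ± 0.841 TPM in PC3 CE and 183 ± 14.0 TPM in PC3 parental (SD, n = 3 each). PRAC2 was at least 692-fold lower in LNCaP CE, where it had 0 counts, and differed by -6.44 ± 0.55 (SE, adjusted p = 5.04e-07) on the log2 scale in PC3 CE.

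In HOXC, the central members and the posterior members HOXC9, HOXC10 and HOXC12 were higher in both CE derivatives. The posterior members HOXC11 and HOXC13 went opposite ways in LNCaP and PC3. HOXC4 had 11.6, 11.6 and 12.5 TPM in LNCaP CE, 47.4, 44.5 and 49.5 TPM in PC3 CE, 1.56, 1.68 and 1.82 TPM in LNCaP parental and 1.50, 0.78 and 1.57 TPM in PC3 parental. HOXC5 had 1.42, 1.12 and 1.62 TPM in LNCaP CE, 8.03, 8.54 and 7.89 TPM in PC3 CE, 0.16, 0.49 and 0.37 TPM in LNCaP parental and 0.47, 0.48 and 0.66 TPM in PC3 parental. Both rose in both lines, HOXC4 by 2.92 ± 0.13 in LNCaP CE and 5.04 ± 0.19 in PC3 CE on the log2 scale, and HOXC5 by 2.09 ± 0.53 in LNCaP CE and 3.83 ± 0.27 in PC3 CE. They share the annotated start named earlier, so reads at that end may belong to either. HOXC6 had 68.9, 61.9 and 71.0 TPM in LNCaP CE, 113, 118 and 112 TPM in PC3 CE, 37.8, 26.0 and 40.4 TPM in LNCaP parental and 8.20, 6.16 and 6.93 TPM in PC3 parental. HOXC6, often high in prostate cancer, was the second HOX transcript of LNCaP parental, and its log2 fold change was 0.76 ± 0.14 (SE, adjusted p = 4.02e-04) in LNCaP CE and 3.83 ± 0.16 (SE, adjusted p = 8.44e-10) in PC3 CE. HOXC8 had 13.3, 13.4 and 14.9 TPM in LNCaP CE, 23.7, 23.5 and 23.0 TPM in PC3 CE, 0.18, 0.16 and 0.26 TPM in LNCaP parental and 9.11, 8.65 and 9.30 TPM in PC3 parental. HOXC9 had 36.4, 34.8 and 35.9 TPM in LNCaP CE, 49.6, 45.0 and 48.8 TPM in PC3 CE, 8.55, 4.79 and 8.95 TPM in LNCaP parental and 2.17, 1.85 and 1.64 TPM in PC3 parental. HOXC8 and HOXC9, genes of the thorax and its lower end, differed in LNCaP parental, where HOXC8 was at most 0.26 TPM. The log2 fold change of HOXC8 was 6.22 ± 0.19 in LNCaP CE and 1.30 ± 0.14 in PC3 CE, and that of HOXC9 was 2.35 ± 0.17 in LNCaP CE and 4.72 ± 0.17 in PC3 CE. HOXC10 had 173, 177 and 169.8 TPM in LNCaP CE, 196, 197 and 187 TPM in PC3 CE, 2.69, 2.17 and 2.27 TPM in LNCaP parental and 3.74, 3.74 and 3.19 TPM in PC3 parental. HOXC10 is a lumbar gene and rose in both, by 6.12 ± 0.13 in LNCaP CE and 6.10 ± 0.16 in PC3 CE.

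HOXC11 had 17.9, 19.9 and 20.7 TPM in LNCaP CE, 0.50, 0.64 and 0.45 TPM in PC3 CE, 0.02, 0.00 and 0.02 TPM in LNCaP parental and 1.11, 1.16 and 1.17 TPM in PC3 parental. HOXC11 was present in LNCaP CE and low elsewhere. It overlaps the non-coding gene HOTAIR on the opposite strand, which had 5.48, 4.71 and 5.09 TPM in LNCaP CE, 0.44, 0.74 and 0.22 TPM in PC3 CE, 0.04, 0.00 and 0.04 TPM in LNCaP parental and 5.26, 6.34 and 4.01 TPM in PC3 parental. LNCaP parental had 2 counts, a ratio of 2124 (588 to 17543) for LNCaP CE, while the log2 fold change in PC3 CE was -0.74 ± 0.30 (SE, adjusted p = 0.0425). HOXC12 had 9.06, 8.58 and 9.69 TPM in LNCaP CE, 2.44, 2.65 and 2.41 TPM in PC3 CE, 7.05, 7.16 and 6.75 TPM in LNCaP parental and 0.02, 0.00 and 0.01 TPM in PC3 parental. HOXC12 was close to absent from PC3 parental, with 3 counts in all, and the count ratio for PC3 CE was 212 (72.1 to 1029). In LNCaP CE it differed from LNCaP parental by 0.48 ± 0.10 (SE, adjusted p = 0.00112) on the log2 scale. HOXC13 had 27.5, 26.6 and 27.4 TPM in LNCaP CE, 7.51, 6.82 and 6.85 TPM in PC3 CE, 17.0, 11.3 and 16.9 TPM in LNCaP parental and 10.8, 9.12 and 10.1 TPM in PC3 parental. HOXC13, a gene of hair and nails, was expressed in all 4 kinds of cells and differed by 0.97 ± 0.12 (SE, adjusted p = 2.54e-05) in LNCaP CE and -0.58 ± 0.11 (SE, adjusted p = 5.87e-04) in PC3 CE.

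HOXA was the cluster with the highest sum in PC3 parental cells, where all 10 of its members reached 1 TPM. HOXA2 had 4.87, 4.80 and 5.32 TPM in LNCaP CE, 8.45, 7.42 and 8.18 TPM in PC3 CE, 0.02, 0.07 and 0.00 TPM in LNCaP parental and 2.28, 2.46 and 2.26 TPM in PC3 parental. HOXA3 had 9.79, 8.28 and 10.0 TPM in LNCaP CE, 26.5, 27.8 and 30.4 TPM in PC3 CE, 0.63, 0.78 and 1.00 TPM in LNCaP parental and 10.9, 9.59 and 10.5 TPM in PC3 parental. HOXA4 had 6.08, 6.37 and 7.35 TPM in LNCaP CE, 9.21, 10.1 and 9.23 TPM in PC3 CE, 0.43, 0.43 and 0.38 TPM in LNCaP parental and 5.55, 6.48 and 6.38 TPM in PC3 parental. These 3 genes of the hindbrain and neck rose in both lines, and every LNCaP parental library was at or below 1 TPM for each. The log2 fold change of HOXA2 was 7.24 ± 0.57 in LNCaP CE and 1.70 ± 0.25 in PC3 CE. For HOXA3 it was 3.71 ± 0.25 in LNCaP CE and 1.28 ± 0.18 in PC3 CE, and for HOXA4 3.91 ± 0.21 in LNCaP CE and 0.60 ± 0.21 in PC3 CE. HOXA4 in PC3 lost its call without PC3 parental control 1 (adjusted p = 0.0622) and without PC3 CE control 2 (adjusted p = 0.0533). HOXA5 had 16.1, 18.7 and 19.1 TPM in LNCaP CE, 38.3, 39.4 and 38.9 TPM in PC3 CE, 4.66, 3.48 and 5.51 TPM in LNCaP parental and 10.2, 12.1 and 8.54 TPM in PC3 parental. HOXA6 had 13.7, 12.1 and 13.9 TPM in LNCaP CE, 27.1, 28.5 and 28.1 TPM in PC3 CE, 6.12, 4.58 and 5.79 TPM in LNCaP parental and 8.32, 7.53 and 7.64 TPM in PC3 parental. HOXA5, a gene of lung and thorax, rose by 2.00 ± 0.19 in LNCaP CE and 2.35 ± 0.10 in PC3 CE, and HOXA6 by 1.47 ± 0.16 in LNCaP CE and 1.84 ± 0.13 in PC3 CE. HOXA7 had 19.9, 20.5 and 19.5 TPM in LNCaP CE, 69.8, 68.6 and 69.1 TPM in PC3 CE, 0.78, 0.23 and 0.10 TPM in LNCaP parental and 1.71, 1.91 and 1.48 TPM in PC3 parental. HOXA7 was the central HOXA member with the largest change in each line, 6.84 ± 0.25 in LNCaP CE and 5.00 ± 0.10 in PC3 CE.

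HOXA9 had 38.4, 37.8 and 42.1 TPM in LNCaP CE, 104, 108 and 109.7 TPM in PC3 CE, 0.45, 0.69 and 0.54 TPM in LNCaP parental and 57.4, 60.2 and 58.8 TPM in PC3 parental. HOXA9, known from leukaemia, where MEIS1 is its partner, was high in PC3 parental and below 1 TPM in LNCaP parental. Its log2 fold change was 6.66 ± 0.33 (SE, adjusted p = 1.10e-08) in LNCaP CE and 0.82 ± 0.08 (SE, adjusted p = 1.17e-06) in PC3 CE. HOXA10 had 14.9, 14.7 and 15.4 TPM in LNCaP CE, 20.9, 20.7 and 22.0 TPM in PC3 CE, 8.50, 11.5 and 9.71 TPM in LNCaP parental and 20.1, 24.7 and 20.2 TPM in PC3 parental. HOXA10, which patterns the uterus, overlapped between PC3 CE and PC3 parental, with a log2 fold change of 0.00 ± 0.23 (SE), and rose by 1.06 ± 0.14 (SE, adjusted p = 3.90e-05) in LNCaP CE. HOXA11 had 1.99, 1.94 and 2.05 TPM in LNCaP CE, 5.52, 6.04 and 6.25 TPM in PC3 CE, 0.19, 0.23 and 0.10 TPM in LNCaP parental and 20.6, 19.2 and 20.1 TPM in PC3 parental. HOXA13 had 0.17, 0.32 and 0.23 TPM in LNCaP CE, 1.08, 0.98 and 0.87 TPM in PC3 CE, 0.01, 0.08 and 0.01 TPM in LNCaP parental and 8.53, 10.3 and 8.96 TPM in PC3 parental. HOXA11 and HOXA13, genes of the limbs and the genital tract, were the 2 members that fell most in PC3 CE, HOXA11 by 1.88 ± 0.09 (SE, adjusted p = 2.35e-09) and HOXA13 by 3.35 ± 0.17 (adjusted p = 5.22e-09) on the log2 scale. HOXA13 is the gene of the third printed window. In LNCaP CE both rose, HOXA11 by 3.86 ± 0.31 and HOXA13 by 3.45 ± 0.59, HOXA13 reaching 0.32 TPM at most. Along HOXA in PC3, members from HOXA2 to HOXA9 were higher in CE, HOXA10 did not differ detectably, and HOXA11 and HOXA13 were lower. The 5 members that fell in PC3 CE, HOXA11, HOXA13, HOXB13, HOXC11 and HOXC13, are named here after their values were seen. HOXC11 in PC3 lost its call without the filter on low counts (adjusted p = 0.0723) and without each of 5 of the 6 libraries in turn (adjusted p = 0.0552 to 0.147).

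Between the parental lines HOXA differed as a whole, and single members of HOXB and HOXC went the other way. LNCaP parental differed from PC3 parental at 30 of 38 members, 5 higher and 25 lower, where 70.3% of 21955 genes tested differed, 35.5% higher and 34.7% lower. The 5 that were higher in LNCaP are central or posterior. They are named after their values were seen. HOXC12 had a count ratio of 638 (218 to 3096) of LNCaP parental over PC3 parental. On the log2 scale HOXB13 differed by 3.74 ± 0.19 (SE, adjusted p = 4.62e-13), HOXC6 by 2.41 ± 0.16, HOXC9 by 2.12 ± 0.18 and HOXC13 by 0.56 ± 0.12. Lower in LNCaP by the most were HOXA13 at -8.57 ± 0.37, HOXA9 at -7.13 ± 0.24, HOXA11 at -7.10 ± 0.21 and HOXA2 at -6.07 ± 0.49. HOXD4 was at least 28.0-fold lower, with 0 counts in LNCaP parental. All 10 HOXA members were lower in LNCaP. The calls at HOXD1, HOXD8 and HOXD12 were lost in some alternative. The differences at HOXC4, HOXC5, HOXC10 and HOXD13 did not pass the test, and HOXB1, HOXD9, HOXD10 and HOXD11 had no counts in either parental control.

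The CE derivatives differed most at HOXC11, HOXB13 and HOXD3. LNCaP CE differed from PC3 CE at 25 of 38 members, 8 higher and 17 lower, where 41% of genes tested differed, 16.7% higher and 24.2% lower. The median log2 difference over members was -0.38, and between the parental lines it was -2.71 (-2.49 with members at 0 counts set to their bound). Higher in LNCaP CE were HOXC11 at 5.07 ± 0.28 (SE, adjusted p = 9.36e-12), HOXD3 at 2.90 ± 0.36, HOXD8 at 2.31 ± 0.32, HOXC13 at 2.07 ± 0.12, HOXC12 at 2.00 ± 0.21, HOXD4 at 1.91 ± 0.33, HOXD9 at 1.87 ± 0.14 and HOXB9 at 0.63 ± 0.21. Lower in LNCaP CE were HOXB13 at -4.06 ± 0.22 (SE, adjusted p = 4.28e-12), HOXC5 at -2.42 ± 0.38, HOXB3 at -1.88 ± 0.16, HOXB2 at -1.86 ± 0.31 and HOXA13 at -1.82 ± 0.27, with 12 others from -1.79 at HOXC4 to -0.62 at HOXC8. The HOXB9 difference lost its call on TPM (limma, adjusted p = 0.0739 with a pseudocount of 1 and 0.111 with 0.1) and without PC3 CE control 1, PC3 CE control 2 or LNCaP CE control 3 (adjusted p = 0.0504 to 0.0546). HOXB1, which is 1 of the 17 lower members, lost its call in 7 of 15 alternatives, among them no filter (adjusted p = 0.0941), the replicate block (adjusted p = 0.126) and 5 of the 6 libraries left out in turn (adjusted p = 0.0561 to 0.0864).

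The change from parental to CE cells was itself tested between the lines. The change in LNCaP minus the change in PC3 differed from 0 at 29 of 38 members, above 0 at 23 and below 0 at 6, where 56.8% of genes tested differed, 25.7% above and 31.2% below. The members with opposite directions in the 2 lines all passed. They were picked by their calls in these same libraries, so this outcome was all but fixed and is no added support. Of them HOXA13 and HOXC11 passed the filter in the LNCaP fit only through CE libraries. HOXA11 differed by 5.71 ± 0.25 (SE, adjusted p = 6.28e-14). HOXA13 differed by 6.76 ± 0.46 (SE, adjusted p = 9.21e-11). HOXC13 differed by 1.51 ± 0.16 (SE, adjusted p = 1.11e-07). The value for HOXC11, 11.67 ± 0.54 (SE, adjusted p = 1.43e-13), rests on 2 counts in LNCaP parental, so its size is uncertain. HOXB13 differed by -7.80 ± 0.29, its fall being larger in LNCaP, and among the others HOXA9 differed by 5.82 ± 0.29 and HOXA2 by 5.51 ± 0.59. For HOXC10 the difference was 0.00 ± 0.18 (SE) on the log2 scale. HOXB1, HOXD9, HOXD10 and HOXD11 had 0 counts in both parental controls, so the size of their change could not be compared. This comparison shares its CE and parental control libraries with the single-line comparisons and is no independent support for them.

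After 4 h of Acetalax the number of HOX members that passed the test differed between kinds of cells and with the libraries fitted. In LNCaP CE 1 of 37 members tested differed from control, 0 higher and 1 lower, against 7.4% of all genes tested, 3.34% higher and 4.06% lower. In LNCaP parental 7 of 37 (18.9%) differed, 2 higher and 5 lower, against 8.45% of genes, 4.04% higher and 4.41% lower. In PC3 CE 2 of 38 differed, 0 higher and 2 lower, against 8.15% of genes, 4.67% higher and 3.47% lower. In PC3 parental 0 of 38 differed (edgeR), against 7.8% of genes, 3.49% higher and 4.31% lower, with HOXA13, HOXB4 and HOXB8, 3 members in all, at an unadjusted p under 0.05 and 2 members called by DESeq2. The summed HOX level was 1076, 1041 and 1062 TPM with Acetalax and 1117, 1087 and 1171 TPM in control for LNCaP CE. For LNCaP parental it was 329, 343 and 306 TPM with Acetalax and 374, 336 and 366 TPM in control. PC3 CE gave 2047, 1563 and 1526 TPM with Acetalax and 1559.7, 1592 and 1577 TPM in control, and the Acetalax library 1 alone lay above the controls. PC3 parental gave 287, 282 and 296 TPM with Acetalax and 311, 303 and 294 TPM in control.

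**Figure D5:**
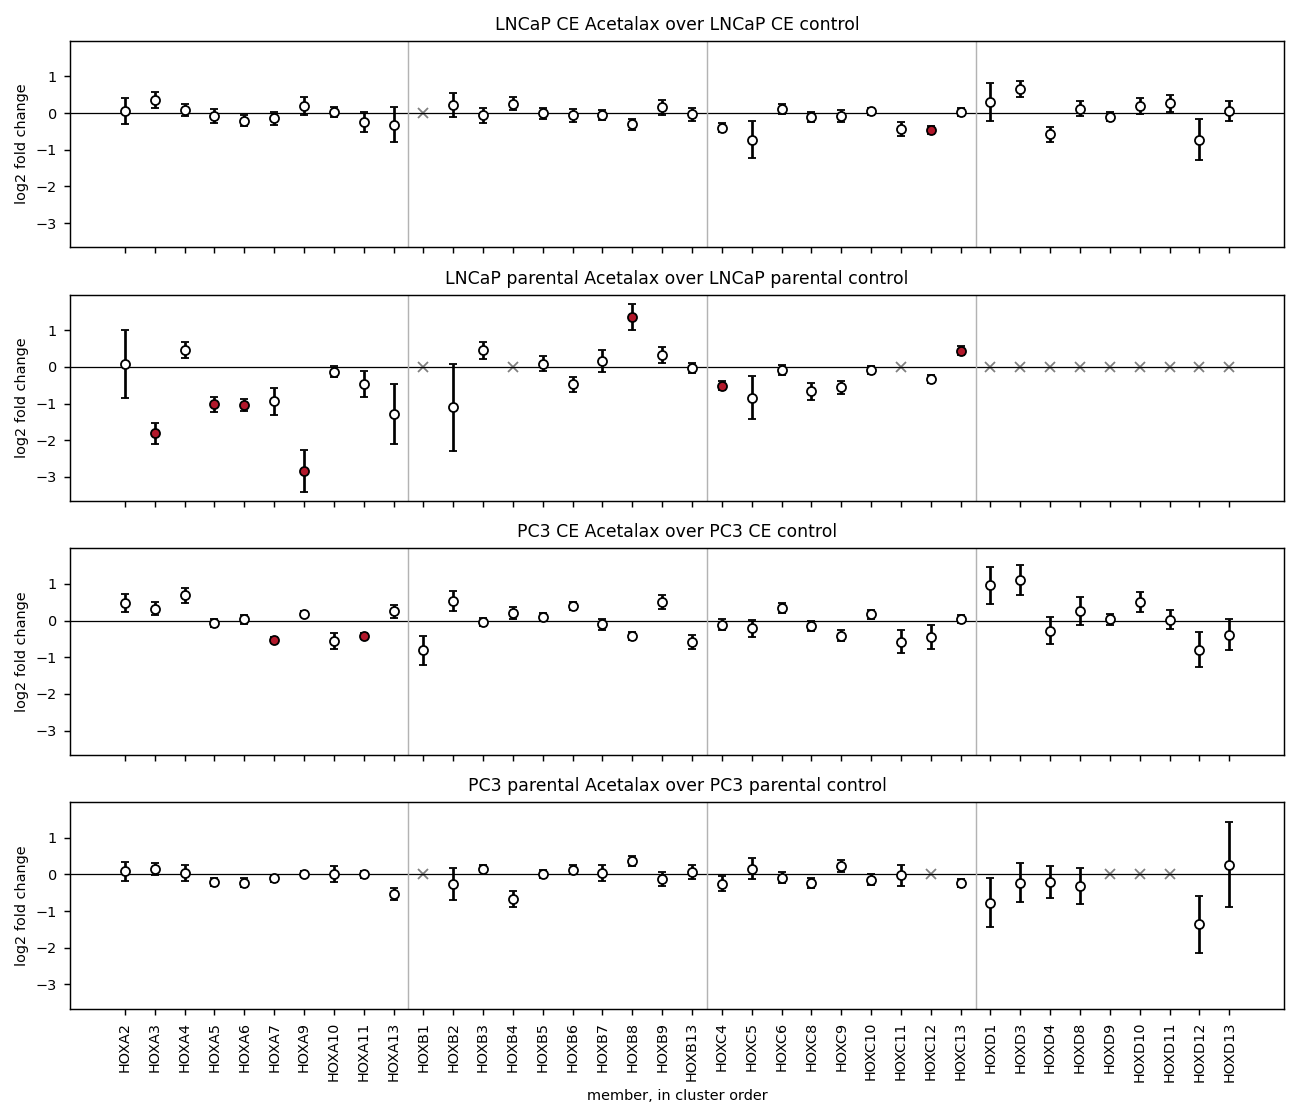
Log2 fold changes of Acetalax over control are plotted for each member in cluster order in the 4 kinds of cells, with the SE as error bar. Red points passed an adjusted p of 0.05, white points did not, and grey crosses at 0 mark members with 3 counts or fewer in a group or not tested. Red points are 1 in LNCaP CE, 7 in LNCaP parental, 2 in PC3 CE and 0 in PC3 parental.

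The members called in LNCaP parental had group means of 5.50 TPM or less, except HOXC13. HOXA5 had 2.30, 2.80 and 1.34 TPM with Acetalax and 4.66, 3.48 and 5.51 TPM in control. HOXA6 had 3.42, 2.68 and 1.94 TPM with Acetalax and 6.12, 4.58 and 5.79 TPM in control. The log2 fold change of HOXA5 was -1.02 ± 0.20 (SE, adjusted p = 0.00875) and that of HOXA6 -1.03 ± 0.16 (SE, adjusted p = 0.00315). The groups did not overlap for either gene. HOXA3 had 0.18, 0.37 and 0.06 TPM with Acetalax and 0.63, 0.78 and 1.00 TPM in control, and fell by 1.81 ± 0.29. HOXA9 had 0.02, 0.00 and 0.14 TPM with Acetalax and 0.45, 0.69 and 0.54 TPM in control, and fell by 2.83 ± 0.58. HOXC4 averaged 1.06 TPM with Acetalax and 1.69 TPM in control, and fell by 0.51 ± 0.13. HOXC13 averaged 19.0 TPM with Acetalax and 15.1 TPM in control, and rose by 0.44 ± 0.12. HOXB8 rose by 1.36 ± 0.35, at 0.25 TPM or less in all 6 libraries. When only the 6 libraries of these 2 groups were fitted, none of the 6 that passed the filter was called (adjusted p = 0.127 for HOXA6 to 0.423 for HOXC4), and HOXB8 was not tested. Without LNCaP parental control 2 and Acetalax 3, which stood apart, 11 members passed, against 26.6% of all genes. Without LNCaP parental Acetalax 1 alone 3 passed, and without Acetalax 2 alone 4, with the shares of all genes not given.

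In PC3 CE, HOXA7 had 47.2, 43.4 and 45.9 TPM with Acetalax and 69.8, 68.6 and 69.1 TPM in control, with no overlap. It fell by 0.53 ± 0.08 on the log2 scale (SE, adjusted p = 0.00340). HOXA11 had 4.43, 4.51 and 3.98 TPM with Acetalax and 5.52, 6.04 and 6.25 TPM in control, and fell by 0.41 ± 0.09 (adjusted p = 0.0163). The HOXA11 call was lost without PC3 CE control 2 (adjusted p = 0.0617) or control 3 (adjusted p = 0.0835). In library 1 of PC3 CE with Acetalax HOXB2 was 467 TPM and HOXB9 381 TPM, against 227 and 213 TPM in library 2 and 208 and 213 TPM in library 3. Without that library 7 members passed, against 16.4% of all genes. Without library 3 the number was also 7, with the share of all genes not given. In PC3 parental 4 members passed when that library was left out of the fit, against 27.3% of all genes. In LNCaP CE, HOXC12 had 5.83, 6.24 and 5.96 TPM with Acetalax and 9.06, 8.58 and 9.69 TPM in control and fell by 0.46 ± 0.10 (adjusted p = 0.0213). That call was lost when any 1 of the 6 libraries was left out (adjusted p = 0.0600 to 0.102). With LNCaP parental control 2 and Acetalax 3 left out of the fit 11 members passed in LNCaP CE, against 34.1% of all genes.

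The responses of CE and parental cells were compared within each line. In LNCaP 2 of 37 members differed, both with a CE response above the parental one, against 1.28% of genes, 0.583% above and 0.701% below: HOXA3 by 2.17 ± 0.36 (SE, adjusted p = 0.0189) and HOXA9 by 3.02 ± 0.63 (SE, adjusted p = 0.0480). Both fell in parental cells. In LNCaP CE HOXA3 had 11.1, 10.9 and 10.6 TPM with Acetalax and 9.79, 8.28 and 10.0 TPM in control. In PC3 1 of 38 members differed, against 8.03% of genes, 4.59% above and 3.44% below, namely HOXB8 by -0.78 ± 0.18 (SE, adjusted p = 0.0251). HOXB8 had 31.7, 45.0 and 43.3 TPM with Acetalax and 54.5, 56.5 and 58.6 TPM in control in PC3 CE, and 2.20, 2.06 and 2.94 TPM with Acetalax and 1.92, 1.65 and 1.86 TPM in control in PC3 parental. Each of the 3 calls was lost in some fit that left out 1 library, and without PC3 CE Acetalax 1 there were 10 calls in PC3 (22.5% of genes), while without LNCaP parental control 2 and Acetalax 3 there were 9 in LNCaP (19.3% of genes).

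Genes that act with the HOX proteins were followed by list. Which genes of this and the following lists passed the filter only through CE libraries was not determined. Their counts, called shares and medians between CE and parental cells are therefore a description. Of 9 PBX and MEIS genes, whose proteins bind DNA together with HOX proteins, 6 rose and 2 fell in LNCaP CE, a called share of 88.9% against 75.3% of all genes, and 6 of the 8 tested rose and 1 fell in PC3 CE, 87.5% against 77.5%, with median log2 fold changes of 2.84 and 2.05 beside -0.06 and -0.01 over all genes. MEIS2 averaged 94.5 ± 2.10 TPM in LNCaP CE and 0.0433 ± 0.0379 TPM in LNCaP parental, and 151 ± 2.52 TPM in PC3 CE and 10.1 ± 1.90 TPM in PC3 parental (SD, n = 3 each). MEIS proteins bind DNA beside posterior and central HOX proteins. MEIS1 averaged 71.1 ± 4.18 TPM in LNCaP CE and 2.29 ± 1.09 TPM in LNCaP parental, and 112 ± 2.25 TPM in PC3 CE and 1.89 ± 1.26 TPM in PC3 parental. PKNOX2 had the largest fall of the list, with a log2 fold change of -5.61 ± 0.41 (SE, adjusted p = 2.48e-07) in LNCaP CE. Between the CE derivatives 3 of 9 (33.3%) differed, all lower in LNCaP CE, against 41% of all genes.

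Non-coding RNAs of the clusters moved in both directions. Of 15 tested in each line, 12 rose and 2 fell in LNCaP CE, and 8 rose and 6 fell in PC3 CE, with medians of 3.82 and 0.91. The called share was 93.3% in each line, against 75.3% of all genes in LNCaP and 77.5% in PC3. HOXB-AS3, on the strand opposite HOXB5 and HOXB6, was at least 345-fold higher in PC3 CE and had a count ratio of 433 (77.3 to 17136) in LNCaP CE. HOTTIP, a non-coding RNA whose gene overlaps HOXA13 on the opposite strand, averaged 0.210 ± 0.137 TPM in PC3 CE and 3.86 ± 0.450 TPM in PC3 parental, a log2 fold change of -4.94 ± 0.30 (SE, adjusted p = 2.74e-08). HOTAIR, the opposite-strand neighbour of HOXC11, averaged 5.09 ± 0.385 TPM in LNCaP CE and 0.467 ± 0.261 TPM in PC3 CE, a log2 difference of 3.41 ± 0.42 (SE, adjusted p = 1.26e-06). No source used here gives the strand setting of the counting, and whether reads of a member and of an antisense gene over it were kept apart is uncertain. Of the 38 members, 24 overlap an annotated gene on the opposite strand, 24 one on the same strand, and 32 either.

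Genes of the complexes that silence or activate the clusters had smaller median changes. Of 23 Polycomb genes 14 rose and 5 fell in LNCaP CE, and 16 rose and 3 fell in PC3 CE, with medians of 0.49 and 0.74. The called share of 82.6% in each line was near that of all genes, 75.3% in LNCaP and 77.5% in PC3. CBX7, a Polycomb reader of histone H3, fell by 2.67 ± 0.14 in LNCaP CE and fell by 1.92 ± 0.12 in PC3 CE. RNF2, the ubiquitin ligase of the complex, rose by 2.48 ± 0.07 in LNCaP CE and 2.75 ± 0.09 in PC3 CE. Of 10 genes of the trithorax side and the H3K27 demethylases 7 rose and 2 fell in LNCaP CE, and 4 rose and 1 fell in PC3 CE, with medians of 0.71 and 0.48 and called shares of 90% and 50%, against 75.3% and 77.5% of all genes. KDM6A, an H3K27 demethylase, went opposite ways, by -1.47 ± 0.08 (SE, adjusted p = 1.72e-08) in LNCaP CE and 1.61 ± 0.15 (SE, adjusted p = 8.80e-07) in PC3 CE. Retinoic acid induces HOX genes in the embryo. Of 12 upstream regulators, some of them retinoic acid genes, 7 were tested in LNCaP, with 4 higher and 1 lower. In PC3 8 were tested, with 4 higher and 2 lower. The medians were 1.32 in LNCaP and 0.65 in PC3, and the called shares 71.4% and 75%. The retinoic acid receptor gene RARB averaged 0.347 ± 0.218 TPM in LNCaP CE and 3.05 ± 0.474 TPM in LNCaP parental, and 48.5 ± 0.927 TPM in PC3 CE and 0.0100 ± 0.0173 TPM in PC3 parental. Of the genes beside the clusters, 5 rose and 8 fell of 15 tested in LNCaP CE and 7 rose and 7 fell of 16 in PC3 CE, with medians of -0.44 and 0.37 and called shares of 86.7% and 87.5%. PRAC1 and PRAC2, given earlier, were the neighbours that fell most in both lines.

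After Acetalax the lists differed in their number of calls, read against 7.4% of all genes in LNCaP CE, 8.45% in LNCaP parental, 8.15% in PC3 CE and 7.8% in PC3 parental. Of the Polycomb genes 3 of 23 (13.0%) passed in LNCaP CE, 4 (17.4%) in LNCaP parental, 2 (8.70%) in PC3 CE and 6 (26.1%) in PC3 parental. Of the 10 trithorax and demethylase genes 2 passed in LNCaP CE, 3 in LNCaP parental and 4 in PC3 CE, all higher with Acetalax, and 2 in PC3 parental, both lower. Of the PBX and MEIS genes 1 passed in LNCaP parental and 0 in the other 3 kinds of cells. Of the cluster RNAs 1 passed in LNCaP CE, 1 in LNCaP parental, 2 in PC3 CE and 0 in PC3 parental. Of the upstream regulators 1 passed, in LNCaP parental, and of the neighbours 0 in any. Where a list had 0 calls by edgeR, 0 to 4 of its genes had an unadjusted p under 0.05 and DESeq2 called 0 to 2. Without the libraries that stood apart the counts were larger. The Polycomb genes then had 13 calls in LNCaP CE (34.1% of all genes), 12 in LNCaP parental (26.6%), 6 in PC3 CE (16.4%) and 19 in PC3 parental (27.3%). The trithorax and demethylase genes had 5 in LNCaP CE, 7 in LNCaP parental, 6 in PC3 CE and 6 in PC3 parental. HOTAIRM1, at the anterior end of HOXA, rose by 0.80 ± 0.17 (SE, adjusted p = 0.0164) in LNCaP CE and by 1.44 ± 0.29 (SE, adjusted p = 0.0143) in PC3 CE. In PC3 CE it had 279.9, 106 and 96.0 TPM with Acetalax and 65.0, 55.8 and 66.2 TPM in control, highest in the library that stood apart. Without that library the log2 fold change in PC3 CE was 0.88 ± 0.11 (SE, adjusted p = 6.95e-05).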

How the data were processed

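Poly(A) RNA of 24 libraries (8 groups of 3) was sequenced from a directional library kit, per the labels' protocols. The deposited tables hold expected counts and TPM per gene, and the submitters' processing notes name FastQC, STAR 2.7 and RSEM with GRCh38. No source used here gives the annotation release or whether counting took strand into account. Of the expected counts 10.2% were not whole. They were rounded (largest shift of a library total 9.6e-05%). The deposited TPM values, scaled by the authors to the same total in each library, served for levels, so a library where other transcripts rise shows lower TPM for the rest. One column of no sample in each table, 2 in all, was not used.

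Each line's 12 libraries were fitted together, and all 24 for comparisons between lines, with edgeR 4.0.16 (R 4.3.3): TMM scaling, filterByExpr with a minimum count of 10, quasi-likelihood tests and Benjamini-Hochberg adjustment over all genes tested, with calls at an adjusted p of 0.05. Standard errors are the log2 fold change divided by the square root of its F statistic. A fold against a group with 0 counts was computed against 3 counts over that group and is a lower bound. For 1 to 3 counts the ratio of library-size-scaled counts is given with an exact 95% interval, which covers counting error only. Alternatives were RLE size factors, no filter, DESeq2 1.42.0, limma 3.58.1 on log2(TPM + 1) and log2(TPM + 0.1), a replicate block, only the groups compared, and libraries left out. The scripts were tested on simulated data. Positions are those of GENCODE 29 on GRCh38, which matched 58429 of the 60660 features by ID. The members and lists were chosen with earlier results of these data known. Members at 1 TPM or more in some control group are given in every library, and in each comparison up to 12 called members by size of change are named. Of other lists, up to 4 called genes at 1 TPM or more in a group are named.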

Additional observations from a re-analysis of the deposited data

Results flagged for a closer look

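The change from parental to CE cells differed between the lines at 29 of 38 members (edgeR's quasi-likelihood test of the difference). The 4 members that went opposite ways are posterior: HOXA11, with a log2 difference of 5.71 (LNCaP minus PC3), HOXA13 with 6.76, HOXC11 with 11.67 and HOXC13 with 1.51. Each was higher in all 3 LNCaP CE libraries than in all 3 LNCaP parental libraries, and lower in all 3 PC3 CE libraries than in all 3 PC3 parental libraries. The 4 were picked by their calls in these same libraries, so this separation is a description and no added support. The background of 56.8% of genes tested is for a difference of any kind between the lines. The share of all genes that went opposite ways was not computed. HOXA13 and HOXC11 passed the filter in LNCaP only through CE libraries, so their calls there support nothing.

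The Acetalax response differed between CE and parental cells at 1 member in PC3, HOXB8, by -0.78 on the log2 scale (CE minus parental), and at 2 members in LNCaP, HOXA3 by 2.17 and HOXA9 by 3.02. HOXA9 was at 0.69 TPM or less in every LNCaP parental library, so its value rests on few counts.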

How the results depend on the processing

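All 37 calls of LNCaP CE against LNCaP parental and 34 of the 36 calls of PC3 CE against PC3 parental (without HOXA4 and HOXC11) kept their direction and their side of the threshold in every alternative run, though 17 in LNCaP and 7 in PC3 passed the filter only through CE libraries. So did 27 of 30 calls between the parental lines, 23 of 25 between the CE derivatives and 23 of 29 in the difference of CE changes. In that difference HOXA7 (-0.74, adjusted p = 0.00158), HOXB4 (-0.48, adjusted p = 0.00651) and HOXB5 (-0.0496, adjusted p = 0.804) reversed with limma on log2(TPM + 1). With limma on log2(TPM + 0.1) HOXA7 kept its direction but not its call (0.42, adjusted p = 0.413). The direction at these members thus depends on the scale, and the cause was not tested. Among the Acetalax calls only HOXA7 in PC3 CE kept its call throughout.

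The counts after Acetalax depended on the processing, and the cause was not tested. The share of all genes called also changed between settings, as given earlier for the libraries left out. For the other settings it is not given, so these counts are no result about HOX genes in particular. For PC3 parental (0 calls) DESeq2 gave 2, limma on log2(TPM + 1) 2, on log2(TPM + 0.1) 1, only the groups compared 1, and PC3 CE Acetalax 1 left out 4. For PC3 CE (2 calls) the values were 7 with DESeq2, 4 with limma on log2(TPM + 1), 1 without the filter, 1 with only the groups compared, and 7 with PC3 CE Acetalax 1 left out. For the PC3 response difference (1 call) they were 5 with DESeq2, 2 and 0 with limma, and 10 with PC3 CE Acetalax 1 left out. For LNCaP parental (7 calls) they were 4 without the filter, 4 with the replicate block, 0 with only the groups compared, and 11 with LNCaP parental control 2 and Acetalax 3 left out. For LNCaP CE (1 call) they were 0 without the filter, 6 with DESeq2, 6 and 2 with limma, 13 with only the groups compared, and 11 with those 2 libraries left out. For the LNCaP response difference (2 calls) they were 5 with DESeq2, 1 with limma on log2(TPM + 0.1), 0 with the replicate block, and 9 with those 2 libraries left out.

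With 1 library left out at a time, counts were 38 to 38 for LNCaP CE against parental, 35 to 35 for PC3 CE against parental, 30 to 31 between the parental lines, 23 to 24 between the CE derivatives and 29 to 30 for the difference of CE changes. After Acetalax they were 0 to 0 in LNCaP CE, 3 to 8 in LNCaP parental, 1 to 7 in PC3 CE, 0 to 1 in PC3 parental, 0 to 4 for the LNCaP response difference and 0 to 10 for that of PC3. The shares of all genes called in these fits are not given, so the ranges describe the processing only. Members at 1 TPM or more were 33 to 33 in LNCaP CE, 33 to 34 in PC3 CE, 12 to 13 in LNCaP parental and 24 to 24 in PC3 parental. At 5 TPM the parental counts were 7 in LNCaP and 15 in PC3.

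With a pseudocount of 0.1 the correlations over members were 0.790 between the CE derivatives, 0.565 between the parental lines, 0.288 between LNCaP CE and LNCaP parental, 0.572 between PC3 CE and PC3 parental, 0.446 between PC3 CE and LNCaP parental, and 0.383 between LNCaP CE and PC3 parental. With 1 library left out they ranged over 0.796 to 0.801, 0.464 to 0.479, 0.155 to 0.180, 0.499 to 0.508, 0.261 to 0.279 and 0.335 to 0.350 in the same order.

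In no comparison did same-numbered libraries deviate together at all 3 numbers (LNCaP parental Acetalax and control: r = 0.736, -0.755 and -0.815). With 3 libraries a group, and some that stood apart, these values cannot show whether the numbers pair the samples. Beyond the counts given, the replicate block moved no count of calls by more than 1.5 times. On TPM (limma) the share of higher among all genes called after Acetalax was lower than in edgeR, 16.9% against 45.1% in LNCaP CE, 29.4% against 47.8% in LNCaP parental and 31.2% against 57.4% in PC3 CE and 37.1% against 57.2% for the PC3 response difference with a pseudocount of 1. With 0.1 it was 30.2% against 45.4% for the LNCaP response difference and 30.3% against 40.8% between the CE derivatives.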
